A study of Mus musculus with 33 samples.

Results

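The podocyte and slit diaphragm genes are a set of 30 genes, chosen by name, whose products build the foot processes of the podocyte and the junction between them. All 30 had a row among the 35349 gene symbols of the count table. They were read by RNA sequencing of whole embryonic mouse kidneys of 5 groups. At embryonic day 11.5 (E11.5) there were 6 wild-type embryos, 5 heterozygous for a loss of Six2 and 5 Six2 knockouts, and at E15.5 there were 4 wild-type and 4 heterozygous specimens. Six2 is the transcription factor gene that keeps nephron progenitors undifferentiated. The labels give the genotype, stage, sex and batch, and name neither the Six2 allele nor the strain, nor whether a specimen pooled animals. No knockout was sampled at E15.5. Since whole kidneys were used, fewer cells of a type and less RNA per cell cannot be told apart in any value below.

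The podocyte is the epithelial cell that wraps the capillaries of the glomerulus. Its foot processes interlock, and the gap between them is bridged by the slit diaphragm, a cell junction of nephrin and its relatives that is tied to actin by adaptor proteins and is part of the barrier that filters blood. In the mouse the ureteric bud has just entered the metanephric mesenchyme at E11.5 and no glomerulus has formed, while glomeruli at several steps of maturation are present at E15.5. Many proteins of the podocyte are general parts of cell junctions, actin and adhesion and are made by other cells too, so the members were separated by their level in wild-type kidneys at E11.5.

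The libraries followed their Six2 labels. At E11.5 the 6 wild types had 19.6 to 31.7 Six2 counts per 1e+06 counts (CPM), the 5 heterozygotes 9.96 to 16.5 CPM and the 5 knockouts 0.278 to 0.644 CPM. The 4 wild types at E15.5 had 11.2 to 13 CPM and the 4 heterozygotes 5.84 to 6.63 CPM. A library held between 10.82 and 42.07 counts in units of 1e+06. All 8 genes of a kidney identity list, among them Pax2, Wt1 and Ret, were detected in every group, with a summed level of 436 to 780 CPM at E11.5 and 450 to 507 CPM at E15.5. The share of ribosomal RNA genes in the E11.5 libraries was 0.871 to 26.1% in batch 1 and 0.221 to 0.468% in batch 2. The E11.5 ranges of the batches did not overlap for 2 of 28 members tested, the slit diaphragm adaptor genes Nck1 (40.8 to 49.8 and 26.5 to 31.7 CPM in batches 1 and 2) and Nck2 (64.1 to 73.1 and 80.7 to 93.4 CPM), against 22.5% of all 16141 genes tested.

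One wild-type embryo at E11.5, replicate 6, stood apart. Its summed level of 8 surface ectoderm genes (Krt5, Krt14, Krt15, Trp63, Trim29, Gjb2, Perp and Sfn) was 211 CPM, against 2.65 to 16.6 CPM in the other 15 embryos. Its 8 neural tube genes (Wnt3a, Zic1, Lhx5, Neurog2, Robo3, Pax6, Sox3 and Dbx1) summed to 58.9 CPM, against 0.119 to 1.24. Both lists were chosen after values were seen, and each of the 16 genes was highest in this embryo. So were 8 members (Nphs1, Ptpro, Kirrel2, Nebl, Nck2, Dag1, Itga3 and Ezr), and 5 were lowest there (Magi2, Kirrel, Foxc1, Trpc6 and Sulf1). The shares of all genes highest or lowest in this embryo were not computed, so these counts are no result about the members. Nebl was 18 CPM in it and 3.7 to 6.76 in the other 5 wild types. The sum of the glomerular endothelium and mesangium genes was lowest there (701 CPM, against 835 to 1260 in the other embryos). So were macrophage (51.2, against 51.3 to 168) and liver and gut (1.2, against 1.7 to 17.9). Nephron progenitor (1290, against 313 to 1240), muscle (246, against 91.2 to 245) and neuron and glia (145, against 43.6 to 128) summed highest. The remaining marker lists lay within the range of the other embryos. The part of the tissue genes in these values was not tested, and members whose call changed without this embryo are given both ways.

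**Figure D1:**
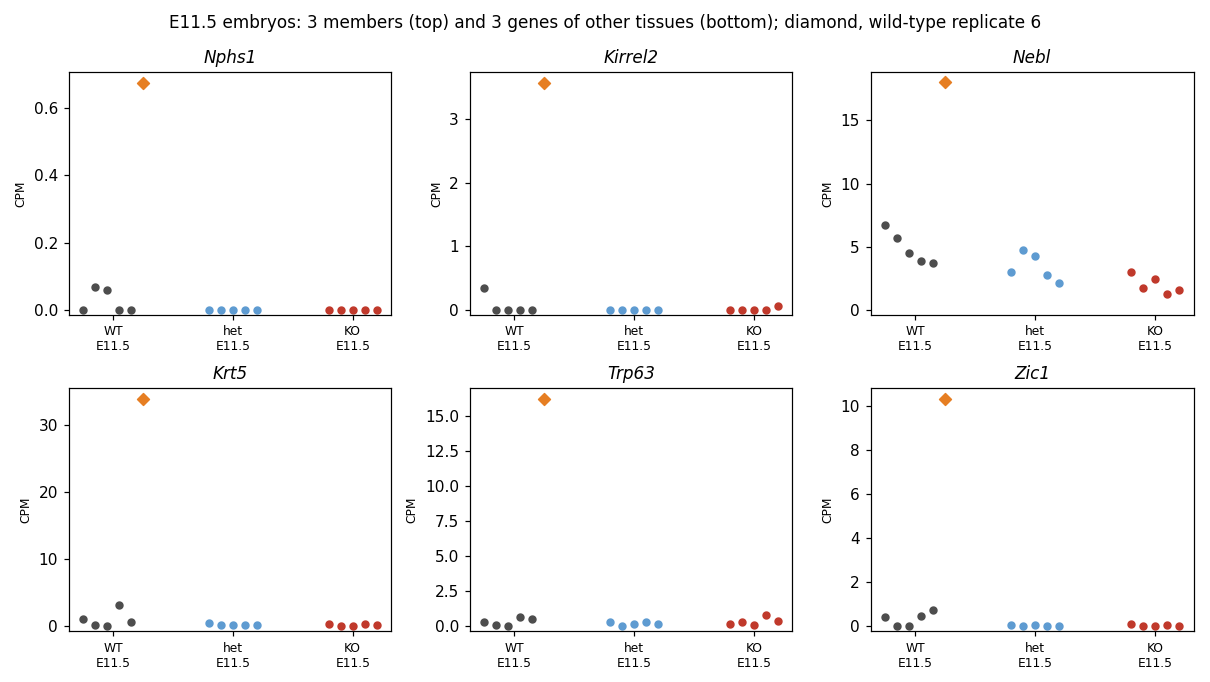
CPM (linear axes) of 3 members and of Krt5, Trp63 and Zic1 in each E11.5 embryo by genotype, with wild-type replicate 6 as a diamond. In all 6 genes the diamond lies above every other embryo, at 0.673 CPM for Nphs1 and 3.56 CPM for Kirrel2.

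In wild-type kidneys at E11.5, 7 members averaged under 1 count per kilobase of gene length per 1e+06 counts (RPKM) and 23 lay above. The 7 low genes were Nphs1, Kirrel2 and Magi2 of the slit diaphragm, Clic5, Ptpro and Pla2r1 of the surface, and Nebl of the cytoskeleton, with a median of 0.309 RPKM and a range of 0.0251 to 0.967. The 23 others ran from 1.54 to 67 RPKM with a median of 10.2. Just inside the threshold lay Magi2 at 0.967 ± 0.159 RPKM (SD, n = 6), and just outside lay Trpc6, a cation channel gene, at 1.54 ± 0.265. Without replicate 6 Magi2 averaged 1.02 RPKM and left the low group.

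Several genes that are used as podocyte markers in the mature kidney were among the 23. Podxl, which encodes podocalyxin, the charged glycoprotein of the free foot process surface, was at 12.7 ± 3 RPKM at E11.5 (SD, n = 6), and Synpo, which encodes the actin-associated protein synaptopodin, was at 4.3 ± 0.895 RPKM. The highest levels belonged to the forkhead factor genes Foxc1 (67 ± 7.01 RPKM) and Foxc2 (57.5 ± 5.07) and to Myh9, a non-muscle myosin heavy chain gene (63.5 ± 8.24). The SDs of these 3 overlap in part, and their order is not separated by the spread. By contrast Nphs1, the gene of nephrin itself, was the lowest of the 30 at 0.0251 ± 0.0502 RPKM.

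**Figure D2:**
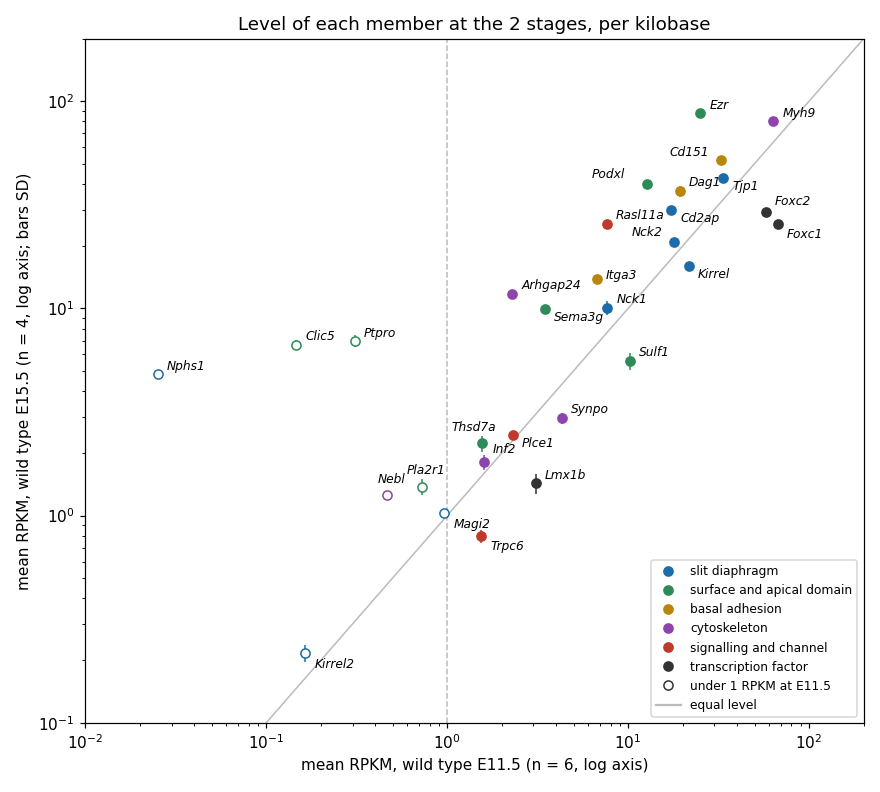
Mean RPKM of each member in wild-type kidneys at E11.5 (n = 6) and E15.5 (n = 4), both on log axes, coloured by role, with SD bars for E15.5 and open circles for the 7 genes under 1 RPKM at E11.5. Nphs1, Clic5 and Ptpro lie far above the line of equal level, while Foxc1, Foxc2 and Lmx1b lie below it.

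The sequence before the RefSeq start site was also described for the 2 classes, by its count of CpG dinucleotides. RefSeq promoters (build GRCm38.p6, the assembly called mm10) were at hand for 25 members, 7 low and 18 above the threshold. In the 250 bases before the start, the low genes held a median of 5 CpG dinucleotides (3 to 29) and the others a median of 20 (6 to 32), where all 27025 promoters had a median of 6, close to the low genes. The ranges of the 2 classes overlap, and this is a description of gene lists with no test. No other genes of like level were compared, so CpG count and expression level cannot be told apart here. Where a gene has more than 1 listed start, as 7 members do, the first was used. The low gene with 29 was Magi2, which has a second listed start with 3. The low gene Nebl, counted as 3, has 4 listed starts holding 0 to 25. Of the others, Nck1 (23), Itga3 (22) and Cd151 (12) have starts with as few as 1, 5 and 4. Dag1 (21) and Inf2 (16) have starts with up to 36 and 18. With the median over the starts of each gene the class medians were 5 and 16. Both nephrin family genes Nphs1 and Kirrel2, which lie head to head on chromosome 7 with starts 625 bases apart in the GENCODE annotation, held 5 and 4, and 44.5% and 38.1% of all promoters held fewer. The windows of 4 genes chosen as examples are given below with CpG in capitals. Ptpro and Clic5 are low genes that rose strongly by E15.5, and Tjp1 and Nck2 are widely expressed slit diaphragm adaptors. None of these 4 windows overlaps an annotated exon, while many of the other member windows do. The Ptpro and Clic5 windows lie outside any annotated gene, while those of Tjp1 and Nck2 lie in introns of longer annotated transcripts of the same genes, before starts inside the gene. The GENCODE genes begin at 65527781 on chromosome 7 for Tjp1, on the minus strand, and at 43444579 on chromosome 1 for Nck2.
Ptpro (chr6:137252049-137252298, plus strand): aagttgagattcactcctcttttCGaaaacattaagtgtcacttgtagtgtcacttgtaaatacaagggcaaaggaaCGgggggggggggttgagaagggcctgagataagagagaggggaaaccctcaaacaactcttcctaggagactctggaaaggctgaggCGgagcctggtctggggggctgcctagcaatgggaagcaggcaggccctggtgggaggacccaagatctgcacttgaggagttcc
Clic5 (chr17:44188322-44188571, plus strand): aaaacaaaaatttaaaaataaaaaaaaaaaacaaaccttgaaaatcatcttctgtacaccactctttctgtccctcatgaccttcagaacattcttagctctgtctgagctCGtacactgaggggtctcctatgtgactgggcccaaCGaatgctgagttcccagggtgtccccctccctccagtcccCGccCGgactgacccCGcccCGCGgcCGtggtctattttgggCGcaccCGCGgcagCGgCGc
Tjp1 (chr7:65371245-65371494, minus strand): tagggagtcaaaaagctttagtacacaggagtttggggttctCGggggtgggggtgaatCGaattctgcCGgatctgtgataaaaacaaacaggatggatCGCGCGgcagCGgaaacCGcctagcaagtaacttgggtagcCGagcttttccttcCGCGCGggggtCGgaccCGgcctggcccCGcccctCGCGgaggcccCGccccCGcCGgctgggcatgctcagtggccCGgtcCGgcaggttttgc
Nck2 (chr1:43445501-43445750, plus strand): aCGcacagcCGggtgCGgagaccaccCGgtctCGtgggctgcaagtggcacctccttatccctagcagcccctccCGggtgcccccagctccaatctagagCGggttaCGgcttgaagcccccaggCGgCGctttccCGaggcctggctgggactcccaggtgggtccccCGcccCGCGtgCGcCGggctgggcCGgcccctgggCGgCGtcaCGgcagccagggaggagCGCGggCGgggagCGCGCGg
Ptpro has 3 CpG, Clic5 13, Tjp1 22 and Nck2 26. Letters bound by forkhead factors (TAAACA, both strands) were present in 2 of the 25 member windows, those of Myh9 and Pla2r1, against 12% of all promoters. The homeodomain core TAATTA was in none of the 25, against 4.9%, and the E-box CAGCTG in 5, against 12.8%. A missing match says only that these letters are not in these 250 bases.

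The comparison of the stages in wild-type kidneys asked which members differed in level between E11.5 and E15.5. From E11.5 to E15.5, 17 of 30 members rose (56.7%, where 26.4% of all 17362 genes rose), 7 fell (23.3%, where 26% of all genes fell) and 6 did not pass. Their median log2 difference was 0.55, beside -0.02 over all genes tested. Nphs1 (nephrin), Clic5 and Ptpro rose most, by over an order of magnitude, and all 3 transcription factor genes fell. Nphs1 and Kirrel2 passed the filter on low counts only through E15.5. The rise of Nphs1, counted among the 17, was thus built into its being tested. Shares without such genes were not computed. The stages were sequenced separately, so stage here cannot be told apart from sequencing run. Nor can it be told apart from anything else that differed between the dissections of the 2 ages.

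Among slit diaphragm genes, 3 of 8 rose, Nphs1 among them, 1 fell and 4 did not pass. Nphs1 had 0, 0.0294 and 0.673 CPM as its lowest, median and highest wild-type values at E11.5, and 25.9, 25.2, 25 and 26.2 CPM at E15.5. The stages do not overlap, and 14 of the 16 Nphs1 counts at E11.5 were in replicate 6. The log2 difference was 7.31 ± 0.46 (SE, adjusted p = 6.08e-09) and 9.75 ± 0.27 without that embryo. Nphs1 passed the filter on low counts only through its E15.5 level, so a difference was built into its being tested. In heterozygous kidneys it had 0 counts in all 5 embryos at E11.5, which allows up to 0.0255 CPM over the group, and 30.5, 26.2, 25.5 and 22.1 CPM at E15.5, at least 1020-fold higher. The 5 knockout embryos also had 0 counts, which allows up to 0.0362 CPM. These limits cover counting error only.

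Kirrel2, a nephrin relative, was the exception of the pair. It had 0 counts in 4 of 6 wild-type embryos at E11.5, 0.338 CPM in replicate 1 and 3.56 CPM in replicate 6, and 0.785, 0.942, 0.796 and 0.911 CPM at E15.5. Replicate 6 thus exceeded every E15.5 specimen. Like Nphs1 it passed the filter on low counts only through E15.5, so its fitted differences are no independent result. With replicate 6 the difference was 0.84 ± 0.96 on the log2 scale (adjusted p = 0.486), and without it 4.04 ± 0.65 (adjusted p = 4.81e-05). In heterozygous kidneys Kirrel2 had 0 counts in all embryos at E11.5 and was at least 38.8-fold higher at E15.5. Kirrel, which encodes the partner that binds nephrin across the slit, fell by 0.47 ± 0.09 on the log2 scale. The adaptor and scaffold genes moved little. Cd2ap rose by 0.73 ± 0.10 and Tjp1 by 0.30 ± 0.09, a call that was lost without wild-type E15.5 replicate 2, while Magi2 (0.03 ± 0.12), Nck1 (0.30 ± 0.21) and Nck2 (0.20 ± 0.09) did not pass. Nck2 did pass without replicate 6 (0.25 ± 0.09, adjusted p = 0.0206). The stage model has no batch term. Since the stages were sequenced separately, a batch number found at both stages does not mark a shared sequencing run. Fits on 1 batch number alone match the stages by that label only, and each gene passed in 1 of them. For Nck1 the batch 2 libraries gave 0.61 ± 0.09 (adjusted p = 3.71e-05), while those of batch 1 gave 0.05 ± 0.06 and did not pass. For Nck2 the batch 1 libraries gave 0.34 ± 0.04 (adjusted p = 2.07e-06), while those of batch 2 gave 0.05 ± 0.06, and each gene thus passed where its E11.5 levels were the lower ones.

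Of the 8 surface and apical genes, 7 rose and 1 fell. Clic5, which encodes a protein that binds ezrin under the foot process membrane, was at 0.417, 0.863 and 1.21 CPM (lowest, median and highest wild type) at E11.5 and at 39.4, 41.1, 36.4 and 40.3 CPM at E15.5, a log2 difference of 5.39 ± 0.22 (adjusted p = 8.82e-15). Ptpro, a receptor tyrosine phosphatase of the foot process, was at 1.27, 1.81 and 3.7 CPM at E11.5 and at 48.3, 48.9, 42.3 and 48.8 CPM at E15.5 (4.38 ± 0.21). Neither gene's stages overlap. Podxl went from 47.4, 72.9 and 91.2 CPM to 216, 230, 204 and 224 CPM, a difference of 1.69 ± 0.17 from a level that was already well above that of the low genes per kilobase. Ezr, the gene of ezrin, which joins podocalyxin to actin, went from 58.5, 76.5 and 130 CPM to 294, 288, 284 and 289 CPM (1.80 ± 0.16). Sema3g, which encodes a secreted semaphorin, went from 5.66, 18.6 and 24.4 CPM to 44.8, 46.3, 45.2 and 44.9 CPM (1.43 ± 0.29), again with no overlap. Pla2r1 (0.90 ± 0.11) and Thsd7a (0.44 ± 0.16), whose proteins are the antigens of human membranous nephropathy, rose less. Thsd7a lost its call in batch 1 alone (0.31 ± 0.15, adjusted p = 0.0809) and without wild-type replicate 2 or 4 of either stage. Sulf1, a sulfatase gene acting on heparan sulfate, fell by 1.00 ± 0.15.

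**Figure D3:**
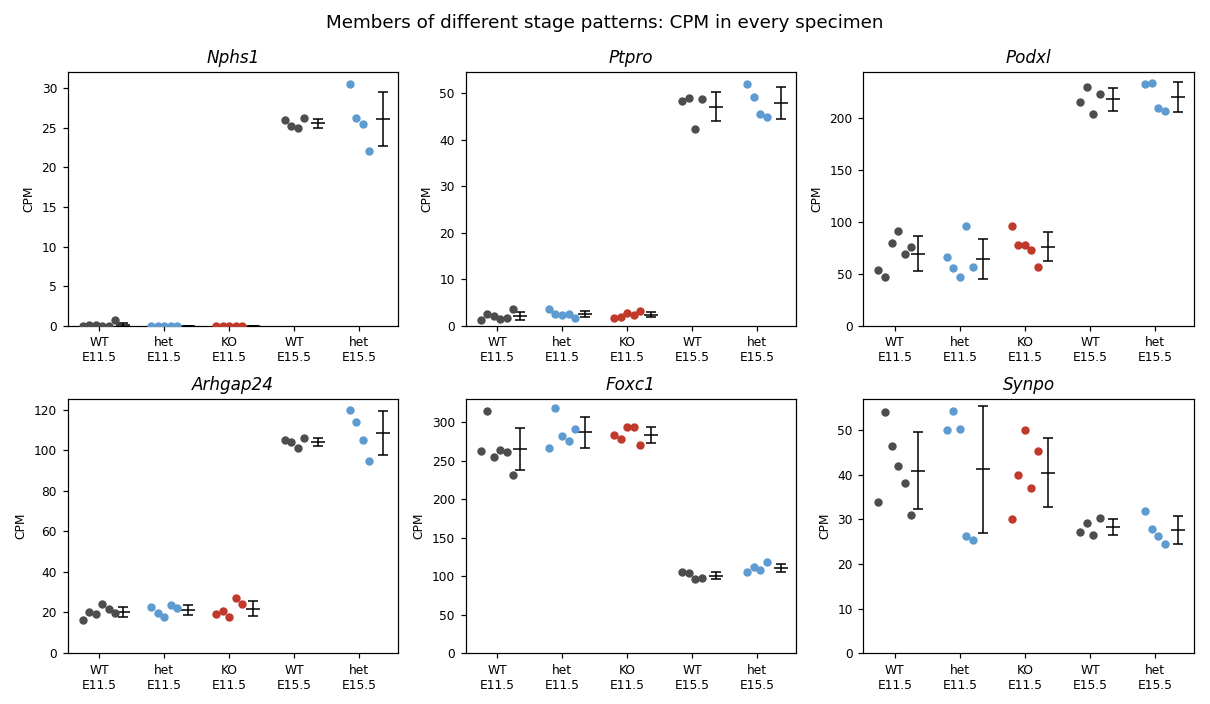
CPM of 6 members in every specimen (points) by genotype and stage, on linear axes from 0, with mean and SD at the right of each group. Nphs1 and Ptpro are near 0 at E11.5 and reach 25 to 26.2 and 42.3 to 48.9 CPM in wild type at E15.5, Podxl and Arhgap24 rise from a visible level, and Foxc1 and Synpo fall.

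The 3 adhesion genes rose together. Itga3, the integrin subunit that binds glomerular laminin, rose by 1.07 ± 0.18, Dag1, the dystroglycan gene, by 0.89 ± 0.09 and the tetraspanin gene Cd151 by 0.67 ± 0.08. In the cytoskeleton group 3 of 5 rose. Arhgap24, which encodes a protein that switches off the small GTPase Rac, went from 16.3, 19.8 and 24.1 CPM to 105, 104, 101 and 106 CPM (2.30 ± 0.10, adjusted p = 2.79e-14). Nebl, the gene of the actin-binding protein nebulette, went from 3.7, 5.13 and 18 CPM to 18.3, 19.2, 19.4 and 19.8 CPM (1.43 ± 0.34, and 1.90 ± 0.21 without replicate 6). Only its replicate 6 comes near the E15.5 values. Myh9 rose by 0.29 ± 0.09, Inf2, a formin gene, did not pass (0.12 ± 0.17), and Synpo fell by 0.71 ± 0.17 (adjusted p = 0.00137). Of the signalling genes, the Ras-like gene Rasl11a went from 5.49, 8.71 and 11.1 CPM to 29.4, 29.5, 28.1 and 28.6 CPM (1.77 ± 0.16), the channel gene Trpc6 fell by 0.91 ± 0.16, and Plce1, a phospholipase C gene, did not pass (0.13 ± 0.14).

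All 3 transcription factor genes fell. Foxc1 went from 231, 262 and 315 CPM to 105, 104, 96.8 and 97.4 CPM (-1.44 ± 0.08, adjusted p = 9.55e-13), with no overlap. Foxc2 fell by 1.00 ± 0.07, and Lmx1b, the LIM homeodomain gene mutated in nail-patella syndrome, by 1.20 ± 0.24. Markers of other cells moved with stage in whole kidneys as well. All 12 early nephron genes rose (summed 131 to 215 CPM at E11.5 and 670 to 725 CPM at E15.5 in wild type), 4 of 6 liver and gut genes rose (1.2 to 17.9 and 51.7 to 108 CPM), and all 6 neuron and glia genes fell (43.6 to 145 and 10.1 to 13.9 CPM). No gene of these lists was at 0 in every wild type of a stage, and their part in the members' values was not tested.

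Of 24 other podocyte genes (companions), 14 rose with stage, where 26.4% of all genes rose, 3 fell, where 26% of all genes fell, and 7 did not pass. Their median log2 difference was 0.33. The companions include genes that were not tested within E11.5 and so passed the filter only through E15.5, Ddn and Col4a3 among them, for which a rise was built into being tested. Ddn, which encodes the actin-associated dendrin, was at 0 to 0.104 CPM in wild types at E11.5 and 13.2 to 14 CPM at E15.5. The basement membrane collagen gene Col4a3 was at 0.169 to 0.794 and 5.56 to 6.82 CPM. Its partner Col4a4, which was tested at both stages, rose by 4.38 ± 0.22, and Npnt, an integrin ligand gene, by 2.03 ± 0.13. Companions that fell were Wt1, Robo2 and Fat1.

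Whether loss of Six2 changed these genes was asked by setting the E11.5 knockouts against the wild types. Nphs1 and Kirrel2 were not tested, since they did not pass the filter on low counts. Of the 28 others, 1 rose (3.57%, where 2.73% of all 16141 genes rose), 5 fell (17.9%, where 3.7% of all genes fell) and 22 did not pass. Plce1 rose, and Lmx1b, Ezr, Nebl, Foxc2 and Clic5 fell. The median over the 28 was 0.07, beside 0.00 over all genes. None of the 6 tested slit diaphragm genes and of the 3 adhesion genes passed.

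**Figure D4:**
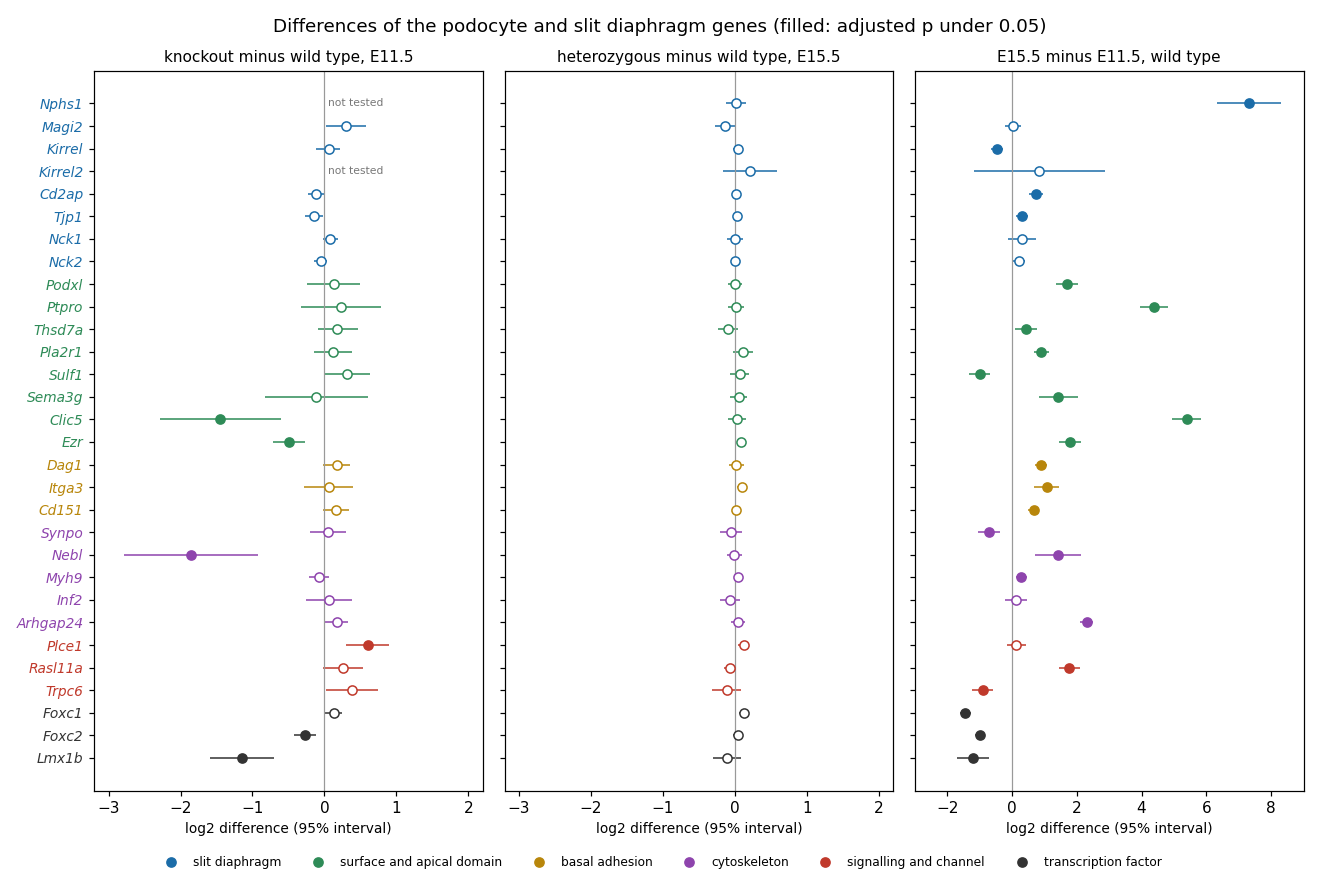
Log2 differences with 95% intervals for every member, coloured by role, in knockout minus wild type at E11.5, heterozygous minus wild type at E15.5, and E15.5 minus E11.5 in wild type (wider axis). Filled points passed the test: 6 in the first panel, 0 in the second and 24 in the third.

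Lmx1b (chromosome 2, 33560965 to 33640511) was at 10.3, 15.8 and 19.1 CPM in wild types (lowest, median and highest) and at 8.87, 6.21, 6.26, 4.83 and 7.66 CPM in the knockouts. The genotypes do not overlap. The log2 difference was -1.15 ± 0.21 (SE, 95% interval -1.59 to -0.70, adjusted p = 0.00334). It kept its call in all 11 fits that left out 1 embryo of the 2 groups, and was -1.19 ± 0.21 in batch 1 and -1.07 ± 0.34 in batch 2, where it did not pass (adjusted p = 0.249). Wild types at E15.5 were at 6.66, 7.35, 6.16 and 7.89 CPM.

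Ezr (chromosome 17, 6738041 to 6782784) was at 58.5, 76.5 and 130 CPM in wild types and at 48.7, 47.2, 47, 67.7 and 62.4 CPM in knockouts, so the pooled ranges overlap. Within a batch they do not. Batch 1 wild types were at 58.9, 64.8 and 58.5 CPM against knockouts at 48.7, 47.2 and 47, and batch 2 wild types at 88.3, 95.1 and 130 CPM against knockouts at 67.7 and 62.4. The difference was -0.49 ± 0.10 (adjusted p = 0.00882), -0.38 ± 0.06 without replicate 6, -0.29 ± 0.07 for batch 1 alone (adjusted p = 0.0948) and -0.61 ± 0.13 for batch 2 alone (adjusted p = 0.0729).

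Plce1 (chromosome 19, 38481109 to 38785030) was at 28.3, 33 and 51.2 CPM in wild types and at 65.9, 53.3, 56, 48.2 and 55.4 CPM in knockouts. One knockout lies below the highest wild type, which is replicate 6. The difference was 0.60 ± 0.14 (adjusted p = 0.0164), 0.63 ± 0.16 for batch 1 alone (adjusted p = 0.0997) and 0.50 ± 0.23 for batch 2 alone (adjusted p = 0.444).

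Nebl (chromosome 2, 17343909 to 17731464) was at 3.7, 5.13 and 18 CPM in wild types and at 2.97, 1.76, 2.44, 1.29 and 1.61 CPM in knockouts, with no overlap. The fall was -1.85 ± 0.44 (adjusted p = 0.0176) with replicate 6 and -1.23 ± 0.18 (adjusted p = 0.000592) without it, so the size depended on that embryo and the call did not. The call was lost in 2 of 11 fits that left out 1 embryo, those without knockout replicate 4 or 5 (adjusted p up to 0.0786). In batch 1, which does not hold wild-type replicate 6, the value was -1.18 ± 0.25 (adjusted p = 0.0502), and in batch 2 it was -2.33 ± 0.72 (adjusted p = 0.226).

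The calls of Foxc2 and Clic5 were lost in most fits that left out 1 embryo. Foxc2 (chromosome 8, 121116171 to 121118895) was at 139, 155 and 177 CPM in wild types and at 119, 118, 129, 139 and 132 CPM in knockouts, a fall of -0.27 ± 0.07 (adjusted p = 0.0302) whose ranges meet at 139. It lost its call in 8 of 11 fits without 1 embryo, wild-type replicate 6 among them (-0.26 ± 0.07, adjusted p = 0.0546). Within batches it was -0.27 ± 0.06 (adjusted p = 0.0663) and -0.14 ± 0.09 (adjusted p = 0.62). Clic5 (chromosome 17, 44188584 to 44280172) had 1 to 22 counts per embryo, with 0.417, 0.863 and 1.21 CPM in wild types and 0.396, 0.556, 0.179, 0.0561 and 0.403 CPM in knockouts. The fall was -1.45 ± 0.40 (adjusted p = 0.0405), and its call was lost in 9 of 11 such fits. Without wild-type replicate 6 it was -1.21 ± 0.38 (adjusted p = 0.0797). Within batches it was -1.17 ± 0.48 (adjusted p = 0.282) and -1.86 ± 0.77 (adjusted p = 0.381).

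**Figure D5:**
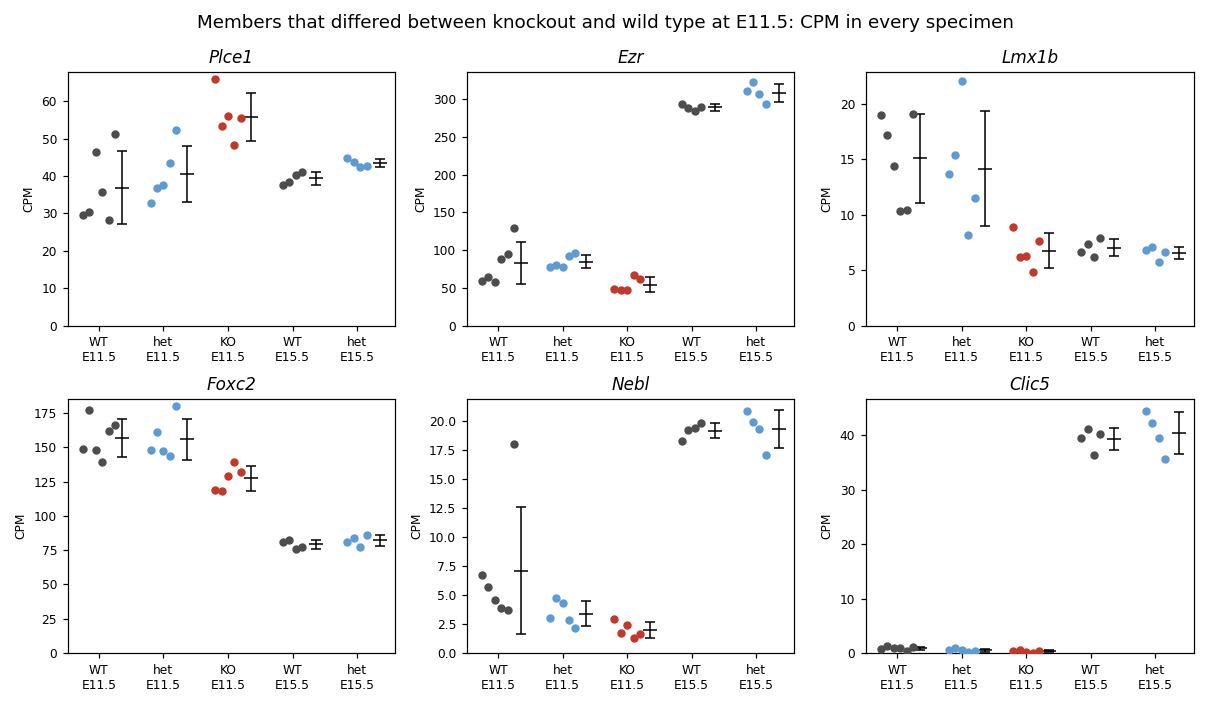
CPM of the 6 members called between knockout and wild type at E11.5, in every specimen (points) by genotype and stage, on linear axes from 0, with mean and SD at the right of each group. Lmx1b and Nebl do not overlap between knockout and wild type at E11.5, and the high wild-type points of Ezr and Nebl, 130 and 18 CPM, belong to replicate 6.

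Leaving out knockout replicate 5, the only male knockout, left 1 call of 6, Lmx1b. The count was 3 without the batch term and 2 (Ezr and Nebl) without the 6 libraries over 5% ribosomal counts. Those 6 were all E11.5 libraries of batch 1, namely 3 wild type, 2 heterozygous and 1 knockout. No batch 1 wild type was left in that fit. In batch 1 ribosomal share thus goes in part with genotype, and its part in the batch 1 values was not tested. The count was 2 (Plce1 and Rasl11a) with the title prefix in place of batch. The prefix G6 holds 3 of the 5 knockouts and no other genotype, and with it the Ezr difference was -0.10 ± 0.16 (adjusted p = 0.746). Without wild-type replicate 6, Dag1 rose in knockouts (0.26 ± 0.06, adjusted p = 0.0213), where with it the value was 0.17 ± 0.09 (adjusted p = 0.325).

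Other cell markers moved in the same comparison. All 10 nephron progenitor genes fell (summed 313 to 389 CPM in knockouts, 837 to 1290 in wild types), all 5 macrophage genes in the table rose (76.4 to 168 and 51.2 to 102 CPM), and 3 of 11 tested early nephron genes, Wnt4, Pax8 and Cdh6, rose (202 to 263 and 131 to 215 CPM). The summed muscle genes also did not overlap (91.2 to 115 CPM in knockouts and 152 to 246 CPM in wild types), with Des lower and Tnnt3 higher among the 4 tested. The neuron and glia genes summed to 87.9 to 128 CPM in knockouts and 43.6 to 145 CPM in wild types, which overlap. All 6 of their differences were positive (median 0.56) and 1 passed. No gene of these lists was at 0 in every embryo of a genotype. Their part in the members' values was not tested. Among 20 companion genes tested, 1 rose (2.73% of all genes rose) and 2 fell (3.7% of all genes fell). Robo2, the gene of a guidance receptor that joins the nephrin complex, was at 282 to 530 CPM in wild types and 126 to 197 CPM in knockouts (-1.20 ± 0.11, adjusted p = 1.02e-05), and Myo1e, a membrane myosin gene, was at 41.7 to 54.9 CPM in wild types and 30.6 to 37.8 CPM in knockouts (-0.40 ± 0.07). Crb2, a polarity gene of the foot process, was at 12.7 to 29.5 CPM in wild types and 31.9 to 45.4 CPM in knockouts (0.69 ± 0.17, adjusted p = 0.0275).

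Against heterozygous kidneys at E11.5, 2 of 28 members fell in knockouts (7.14%, where 2.33% of all genes fell) and 0 rose (0.644% of all genes rose). Ezr was at 77.5, 80.3, 77.6, 91.7 and 96.6 CPM in the heterozygotes, all above the 5 knockouts (-0.60 ± 0.12, adjusted p = 0.0108). Lmx1b was at 13.7, 15.4, 22, 8.13 and 11.5 CPM, and overlapped the knockouts (-0.97 ± 0.23, adjusted p = 0.0376). Both comparisons use the same knockouts, so they are not independent. Neither call remained without knockout replicate 5 (Lmx1b adjusted p = 0.0625, Ezr adjusted p = 0.0983), and within either batch alone neither passed. Of the 10 fits that left out 1 embryo of these groups, Lmx1b lost its call in 7. Tjp1, the gene of the junction scaffold ZO-1, was at 234 to 289 CPM in heterozygotes and 193 to 240 CPM in knockouts, and did not pass (-0.23 ± 0.06, adjusted p = 0.0635). It passed with DESeq2, with DESeq2 size factors, without the filter on low counts, without the sex term and without wild-type replicate 6 (-0.24 ± 0.06, adjusted p = 0.0341). Without that embryo Nebl passed too (-0.77 ± 0.20, adjusted p = 0.0426), where with it the value was -0.85 ± 0.50 (adjusted p = 0.396). Foxc2 did not pass in this comparison either (-0.28 ± 0.08, adjusted p = 0.0637). Its call appeared with DESeq2, without the filter on low counts, without the sex term, without wild-type replicate 2 and without heterozygous replicate 4. Tjp1 and Foxc2 were chosen here after their values were seen. Heterozygous replicate 1 was run in both batches and has a batch level of its own in the model, so it carries no weight in these differences.

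Between heterozygous and wild-type kidneys at E11.5, 0 of 28 members passed in edgeR's quasi-likelihood test (0.0434% of all genes passed), with 3 at an unadjusted p under 0.05 and 0 adjusted calls in DESeq2 as well. The smallest adjusted p was 0.523, for Clic5 (-0.95 ± 0.39). For 23 of the 28 the 95% interval lay within a 1.5-fold difference, and the widest bound was -1.97, for Nebl. The Nebl difference was -1.01 ± 0.45 (adjusted p = 0.546) with wild-type replicate 6 and -0.46 ± 0.18 (adjusted p = 0.468) without it.

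At E15.5, with 4 deeper specimens in each group, 0 of 30 members passed between heterozygous and wild-type kidneys in edgeR (0.57% of all 18244 genes passed), 4 had an unadjusted p under 0.05, and DESeq2 also called 0. The intervals were narrow. For 29 of 30 members they lay within a 1.5-fold difference, with a median SE of 0.05 on the log2 scale, and the exception was Kirrel2 (0.21 ± 0.17, upper bound 0.59). Nphs1 differed by 0.02 ± 0.06, Podxl by 0.00 ± 0.04, Ptpro by 0.01 ± 0.05 and Clic5 by 0.03 ± 0.06, with heterozygotes at 44.4, 42.2, 39.4 and 35.6 CPM for Clic5. The SD was larger within heterozygotes than within wild types for 22 of 30 members. For Arhgap24 the heterozygotes were at 120, 114, 105 and 94.9 CPM, against 101 to 106 CPM in wild types. Replicate 4, the only female heterozygote, was the lowest of its group for 15 of 30 members, among them Nphs1, Clic5, Arhgap24, Podxl and Ptpro. The share over all genes was computed for neither count, so neither is a result about the members. The smallest adjusted p was 0.169, for Foxc1, at 105, 112, 108 and 118 CPM in heterozygotes (0.13 ± 0.03), which passed only without wild-type replicate 1. Of the companion genes, Crb2 alone passed, at 26.2 to 28.8 CPM in heterozygotes and 22.4 to 24.9 CPM in wild types (0.23 ± 0.04, adjusted p = 0.015).

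The difference between the heterozygous effects at E15.5 and E11.5 was not called for any of the 30 members in edgeR or DESeq2 (0.00576% of all genes passed), with 4 at an unadjusted p under 0.05: Kirrel2, Nphs1, Clic5 and Nebl. Kirrel2 and Nphs1 had 0 counts in all 5 heterozygotes at E11.5 and passed the filter only through E15.5, so no fitted value is given for them. For Nebl the difference was 1.06 ± 0.48 on the log2 scale, and 0.57 ± 0.30 without wild-type replicate 6. For Clic5 it was 0.90 ± 0.35, and 0.81 ± 0.36 without that embryo.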

How the data were processed

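RNA was taken from snap-frozen whole kidneys and sequenced on Illumina libraries, per the labels' protocols. The authors deposited raw read counts for each gene symbol, with a gene length column, in 33 libraries. STAR 2.4.0h1, featureCounts 1.4.6 and build mm10 are named per the submitters' processing notes, while the annotation, the strand setting and how multiply mapping reads were handled are not given in the sources used here. The members, lists and tests were chosen with earlier results of these data known.

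Runs of 1 specimen (the same technical replicate number at E15.5, and 1 heterozygous embryo run in both batches at E11.5) were summed, giving 24 specimens. In 8 of 8 E15.5 specimens a run matched its own second run best. The labels do not say whether specimens are separate animals, and the p-values therefore reflect only how specimens differ, which may be technical. Counts were given TMM scaling factors and tested in edgeR 4.0.16 (R 4.3.3) with the quasi-likelihood F test, after filterByExpr by group (minimum count 10, total 15), with Benjamini-Hochberg adjustment over all genes tested and a threshold of 0.05. At E11.5 the terms were genotype, sex and batch (the replicate number of the titles, hence the replicate block), with a level of its own for the embryo in both batches. Same-batch libraries of different genotypes deviated together (median correlation 0.426, and -0.419 between batches). At E15.5 they were genotype and sex, and for the stages group and sex over all specimens. CPM uses the scaled totals, and RPKM divides it by the deposited length. The rule for named genes gave specimen values for members called between genotypes and for the 10 called members with the largest stage difference, companions called between genotypes and the 5 with the largest stage difference. Some genes of the lists are not reported here. Alternatives covered scaling, DESeq2 1.42.0, filter, sex, batch and leaving out each specimen. The tests were also run on simulated counts, with an outcome that is not given here. Those counts held no batch, sex or single-embryo effects, so they do not bear on how the calls depend on these. Promoters are from RefSeq and positions from GENCODE vM21.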

Additional observations from a re-analysis of the deposited data

Results flagged for a closer look

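Of 150 groups of values (30 members in 5 groups), 6 held a specimen far from the others of its group by Dixon's test at 95%, which flags about 1 group in 20 by chance. Of these values, 3 came from wild-type replicate 6 at E11.5. Nphs1 was 0.673 CPM there, with 0.0675 CPM as the next highest, Kirrel2 was 3.56 CPM (next 0.338) and Nebl was 18 CPM (next 6.76). Kirrel2 was 0.0576 CPM in knockout replicate 5 at E11.5, which is 1 count, and 0 in the other knockouts. Myh9 was 616 CPM in wild-type replicate 1 at E11.5, with the next lowest at 825 CPM. Ptpro was 42.3 CPM in wild-type replicate 3 at E15.5, with the next lowest at 48.3 CPM.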

How the results depend on the processing

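Of 326 values of named members under alternative settings, 265 kept their call and direction, 60 lost the call and 1 reversed: with the title prefix in place of batch, Ezr in knockout against heterozygous kidneys went to 0.04. For knockout against wild type, with 6 members called, the count was 3 with no replicate block, 2 with the title prefix, 2 without libraries over 5% ribosomal counts, 1 in batch 1 alone, 0 in batch 2 alone, 1 to 5 when 1 wild type or knockout was left out, and 5 to 6 when 1 heterozygote was. The replicate block thus added 3 calls, Foxc2, Clic5 and Ezr. For knockout against heterozygous, with 2 called, it was 0 with no replicate block, 1 with the title prefix, 1 without those libraries, 0 in each batch alone, 4 with DESeq2, 4 without the filter on low counts, 4 without the sex term, 0 to 3 when 1 heterozygote or knockout was left out, and 2 to 4 when 1 wild type was. The within-batch fits hold 3 wild types against 3 or 2 knockouts. The stage comparison called 22 to 26 members when 1 specimen was left out and all 10 named members kept their calls. Heterozygous against wild type at E15.5 called 0 to 1 when 1 specimen was left out, the 1 being Foxc1. Dividing no level by length, 3 members were under 1 CPM in wild types at E11.5, where 7 were under 1 RPKM. At E11.5 depth limits Nphs1, Kirrel2 and Clic5, with at most 14, 74 and 22 counts in an embryo. Where not stated otherwise, the cause was not tested.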

Other observations

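The level of Foxc2 relative to Foxc1, per kilobase, was a ratio of 0.606 to 0.708 in the knockouts at E11.5, where the wild types had 0.764 to 1.04 and the heterozygotes 0.731 to 0.9. At E15.5 the wild types had 1.12 to 1.16 and the heterozygotes 1.03 to 1.12. The knockout ratios lay below those of every other specimen. This ratio was chosen after values were seen and was not tested.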
